A study of Homo sapiens with 4 samples.

Results

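The HOX cluster genes are the 39 protein-coding genes named HOXA, HOXB, HOXC or HOXD with a number among the 58735 genes deposited. They were chosen by name and biotype, with earlier results of these data known, and are 11 HOXA, 10 HOXB, 9 HOXC and 9 HOXD genes. RNA of cells labelled OVCAR8, a long-established line from a human ovarian carcinoma, was sequenced in 2 groups of 2 libraries. The group shCON (genotype WT in the labels) received a scrambled short hairpin and the group shFAM49B received hairpins against FAM49B. Both were carried by GIPZ plasmids delivered with Lipofectamine 3000, with harvest 36 h later, whereas the design text of the series speaks of a stable knockdown. Whether replicate libraries are independent cultures is not stated, and the spread between them, on which every p-value here rests, may be technical.

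HOX genes encode homeodomain transcription factors that give cells their position along the body axis. They lie in clusters on different chromosomes, and genes at the same relative place in different clusters are paralogs that share a number, from group 1 at the anterior end to group 13 at the posterior end. The order of the genes on the chromosome follows the order of the body regions in which they act, and adult epithelia and the cell lines derived from them often keep the combination of HOX genes of their origin. In the Müllerian duct, which forms the oviduct, uterus and upper vagina, HOXA9, HOXA10, HOXA11 and HOXA13 are known to mark successive segments.

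Levels are in FPKM as deposited, that is, reads scaled to the length of the gene's exons and to a factor per library. That factor equals median ratios between libraries and not the total of recovered reads. The libraries held 15639559 and 16875353 recovered reads in shCON and 16288871 and 16290200 in shFAM49B, at which 3 reads in a gene of 1 kb are worth 0.162 to 0.2005 FPKM. FAM49B itself, the check of the labels, was at 7.41 and 7.60 FPKM in shCON and at 1.06 and 1.02 FPKM in shFAM49B, 7.21-fold lower (limma adjusted p = 0.00054). Differences were tested with limma on log2(FPKM + 1) over the 13775 genes that averaged 1 FPKM or more, and passed at a Benjamini-Hochberg adjusted p under 0.05 over all of them. Log2 fold changes below are shFAM49B minus shCON on that scale, which understates the change of low genes, and folds are ratios of mean FPKM.

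The markers of the labelled cell type were mostly low. Of 13 markers of ovarian and Müllerian epithelium, 5 reached a mean of 1 FPKM in shCON and 3 in shFAM49B. PAX8, the lineage factor of Müllerian epithelium, lay between 0.0264 and 0.112 FPKM in the 4 libraries, MUC16 (CA-125) was at or under 0.00305 FPKM, and SOX17 had no read. The keratins KRT8 and KRT18, which simple epithelia of many origins make, gave most of the list's summed level, which was 74.4 to 76.3 FPKM in shCON and 66.0 to 66.8 FPKM in shFAM49B. EPCAM fell from 2.95 ± 0.0148 FPKM (SD, n = 2) to 0.237 ± 0.152 FPKM (limma adjusted p = 0.0022), and EMX2, a homeobox gene of the urogenital ridge, rose from 1.67 ± 0.235 to 3.10 ± 0.0819 FPKM (limma adjusted p = 0.0099), a call lost without shCON replicate 1 or shFAM49B replicate 2. WT1 was read at a low level, at 1.25 and 1.56 FPKM in shCON and at 0.840 and 0.845 FPKM in shFAM49B, and did not pass (limma adjusted p = 0.092). With lower values in shFAM49B, WT1 passed as TPM, relative to recovered reads, with voom and without the mean-variance trend. Most of these markers therefore go against the label, but WT1 does not, and the list does not settle what the cells are. The cells are called below by their library labels.

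Some markers of other cell types moved with the groups. The lists were chosen with earlier results of these data known, so their counts and sums are a description and no independent evidence on cell type. All 9 markers of stratified squamous epithelium, among them KRT5, KRT14 and TP63, fell in shFAM49B, as did 15.8% of all genes tested. KRT5, the keratin of basal cells, went from 219 and 194 FPKM to 13.3 and 13.6 FPKM (limma adjusted p = 0.00017), and the list's summed level went from 532 to 595 FPKM down to 36.8 to 39.2 FPKM. Of the 5 genes listed for HEK293, a line derived from embryonic kidney, IRS4 rose from 29.3 ± 0.745 to 175 ± 8.62 FPKM, NEFL and NEFM also rose, PAX2 was at 1.91 and 2.12 FPKM, and INA had no read. The summed level of that list was 83.2 to 86.2 FPKM in shCON and 261 to 277 FPKM in shFAM49B. Of 7 markers of nephric progenitors, 6 reached 1 FPKM in both groups, with SIX2 at 16.3 ± 0.596 and 23.7 ± 0.790 FPKM, higher in shFAM49B (limma adjusted p = 0.0035), and OSR1 at or under 0.0126 FPKM. Among the 6 tested, 2 rose and 4 did not pass, with 3 log2 fold changes above 0 and 3 below. EYA1 (means 1.84 and 1.16 FPKM, limma adjusted p = 0.053) and LHX1 (1.75 and 1.27 FPKM, limma adjusted p = 0.13) were lower in shFAM49B without passing. Both passed as TPM, relative to recovered reads, with voom and without the mean-variance trend. Endothelial markers stayed under 0.479 FPKM in sum, and COL1A1 was the only fibroblast marker to reach 1 FPKM. In bulk RNA, fewer cells of a type and less RNA per cell cannot be told apart, and the part of these markers in the HOX results was not tested.

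**Figure D1:**
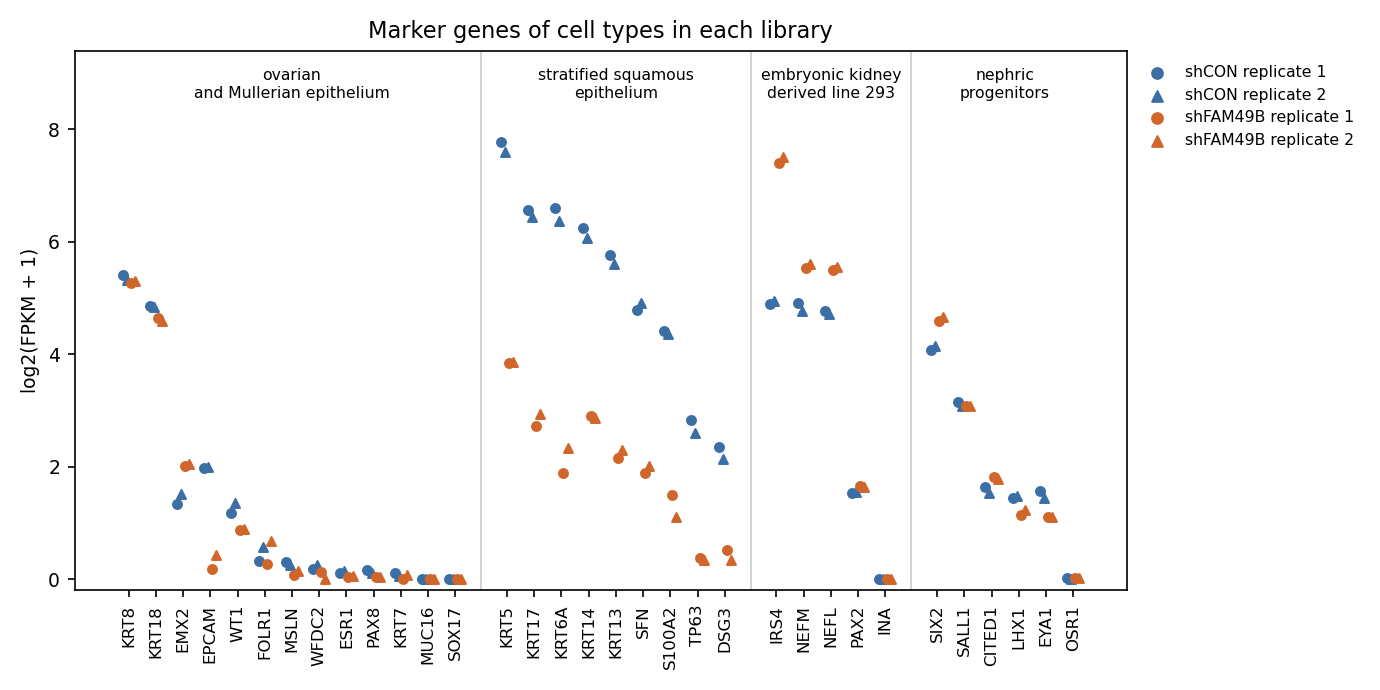
Levels of marker genes in log2(FPKM + 1) on the vertical axis, by list along the horizontal axis, with 1 point per library (blue: shCON; orange: shFAM49B; circles and triangles: replicates 1 and 2). KRT8 and KRT18 were the highest genes of the ovarian list while PAX8, MUC16 and SOX17 lay at or near 0, and all 9 squamous genes were lower and IRS4, NEFL and NEFM higher in shFAM49B.

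Of the 39 HOX genes, 31 averaged 1 FPKM or more across the libraries, 20 reached 5 FPKM and 9 reached 10 FPKM. HOXB9 was the highest member in both groups and HOXA5 the second. In shCON the next were HOXD10, HOXA9, HOXD13, HOXA10, HOXA6, HOXB6, HOXD9 and HOXC10. Within that order the library ranges of HOXA10 and HOXA6 overlapped, as did those of HOXB6 and HOXD9. In shFAM49B the third place went to HOXC10, followed by HOXD13, HOXB6, HOXC4 and HOXC9, the last 2 with overlapping ranges. HOXD10 moved from rank 3 to rank 15 and HOXD9 from rank 9 to rank 22. Over the 31 genes, the range of 13 overlapped that of the next lower gene in shCON and the range of 20 did in shFAM49B, so much of the order below the leading genes is not resolved.

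The code reached the posterior end in every cluster. HOXA13, HOXB13, HOXC13 and HOXD13 all exceeded 4 FPKM in each library, with HOXD13 the highest of them at 12.7 to 16.6 FPKM. Genes of groups 9 to 13 gave 58.3% ± 0.332 (SD, n = 2) of the summed HOX level in shCON and 56.8% ± 0.0265 in shFAM49B, those of groups 5 to 8 gave 31.3% ± 0.588 and 30.7% ± 1.21, and those of groups 1 to 4 gave 10.4% ± 0.256 and 12.5% ± 1.23. The anterior end of HOXD was near silent: HOXD1, HOXD3 and HOXD4 together came to 0.230 to 0.463 FPKM, or 6 to 14 reads per library. HOXA was read up to HOXA13 with HOXA2 near 0, HOXB from HOXB2 to HOXB13, and in HOXC the genes from HOXC4 to HOXC13 were read with HOXC5 and HOXC12 near 0. Across the 39 genes the group means had a Spearman rho of 0.924, a description across genes that share libraries and are not independent replicates.

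**Figure D2:**
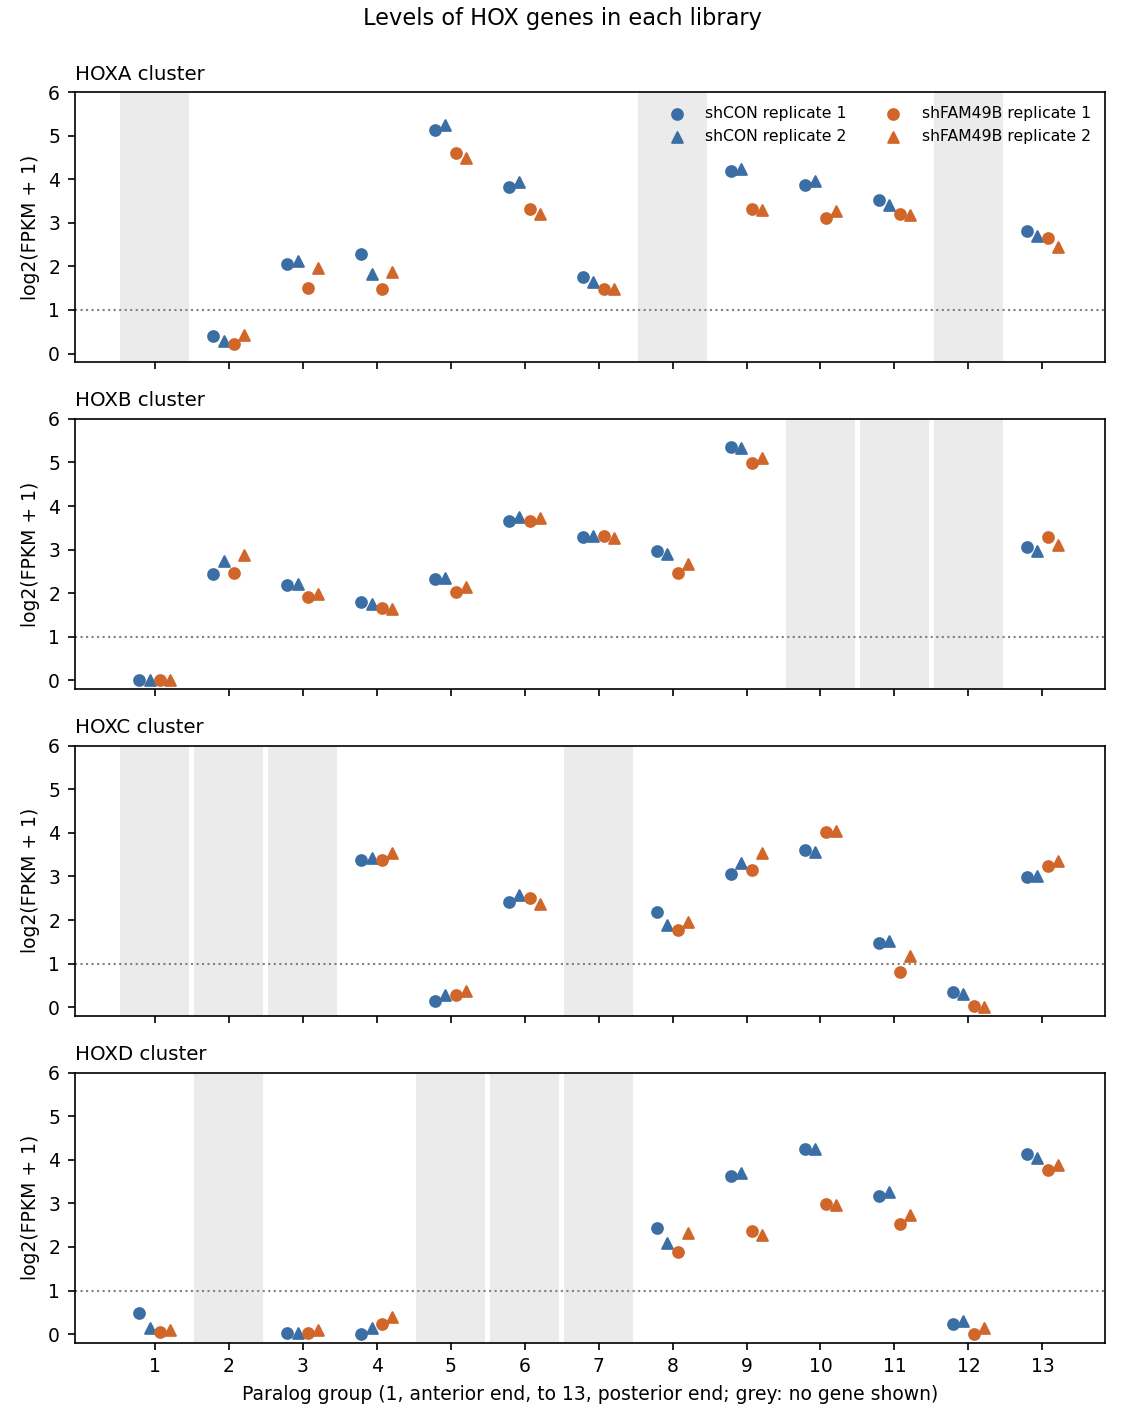
Levels of HOX genes in log2(FPKM + 1) on the vertical axis by paralog group on the horizontal axis, with 1 panel per cluster and 1 point per library (blue: shCON; orange: shFAM49B; circles and triangles: replicates 1 and 2; the dotted line is 1 FPKM and grey marks groups with no gene shown). Group 13 genes are read in all 4 clusters, HOXD1, HOXD3 and HOXD4 lie near 0, and the widest gaps between blue and orange are at HOXD9 and HOXD10.

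The 8 members under 1 FPKM were HOXA2, HOXB1, HOXC5, HOXC12, HOXD1, HOXD3, HOXD4 and HOXD12. Their values ran from 0 to 0.390 FPKM with at most 16 reads in a library, and they were not tested. HOXB1, a hindbrain gene of the fourth rhombomere, had no read in any library. HOXC12 had 16 and 15 reads in shCON and 1 and 0 reads in shFAM49B, and was the only one of them to pass limma when no filter on low values was set (adjusted p = 0.045), a choice of gene made after its values were seen. The reads behind a tested member ran from 37 for HOXC11 to 1873 for HOXB9.

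Of the 31 tested members, 11 fell, 2 rose and 18 did not pass. That is 41.9% called, against 42.2% of all genes tested and 44.2% of the protein-coding ones, so the share of HOX genes that changed was near the background. By direction, 35.5% of the tested HOX genes fell against 15.8% of all genes and 15.6% of protein-coding genes, and 2 of 31 rose against 26.4%. At least 1.5-fold lower were 7 HOX genes, where the background was 8.33%, and none was 1.5-fold higher, where it was 9.71%. The libraries of the groups did not overlap for 21 HOX genes, 18 lower and 3 higher in shFAM49B, with a background of 74.7% in either direction, 31.6% lower and 43.1% higher. The median log2 fold change was -0.24 over the tested HOX genes and 0.05 over all genes, and 25 of 31 HOX genes lay below the all-gene median.

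These directions depend in part on how the libraries are scaled. The deposited FPKM values carry a between-library factor, and rescaling them to TPM moved the median log2 fold change of all genes by -0.24 and rescaling to the recovered reads moved it by -0.19. Among all genes, the share of calls that were higher was 62.7% as deposited, 26.8% as TPM, 29.2% relative to recovered reads, 52.5% with median ratios over the tested genes and 52.0% after quantile normalization. The HOX genes went from 2 higher and 11 lower to 1 and 19 as TPM, and to 1 and 17 relative to recovered reads. The HOX median minus the all-gene median was -0.30 in log2 fold change as deposited, and the same difference came to -0.34 on the TPM scale and to -0.29 on the scale of recovered reads. It was smaller after quantile normalization (-0.24) and without a filter on low values (-0.20), and larger with the filter at 5 FPKM (-0.40).

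**Figure D3:**
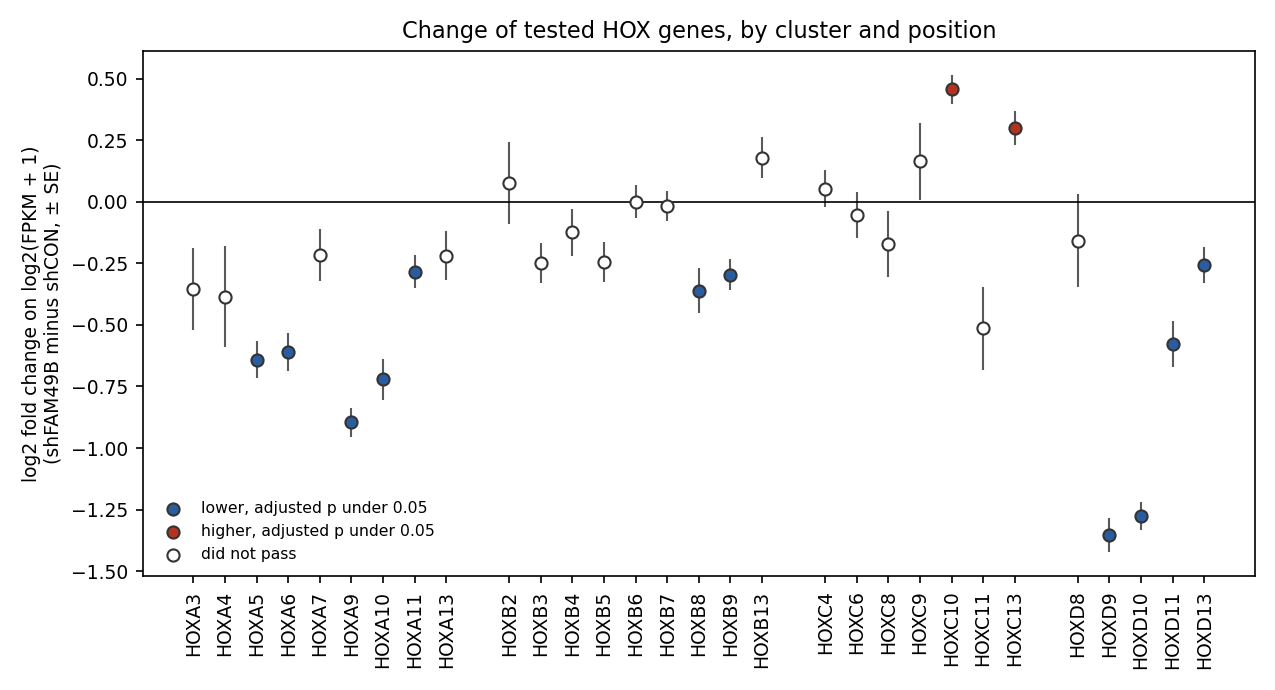
Log2 fold change (shFAM49B minus shCON on log2(FPKM + 1), points, with bars of 1 SE) of tested HOX genes, ordered along the horizontal axis by cluster and position. The lowest points are HOXD9 at -1.35 and HOXD10 at -1.28, the called genes of HOXA lie from HOXA5 to HOXA11, and HOXC10 and HOXC13 are the only called genes above 0.

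The HOXD cluster, at chr2:176092891-176190907 on the plus strand (GRCh38), showed the largest fall. Its posterior genes pattern the limb, the genital tubercle and, with their HOXA paralogs, the urogenital tract. All 4 tested members of groups 9 to 13 fell, with a median log2 fold change of -0.93, and the central gene HOXD8 did not pass. In this cluster 80% of the tested members were called, against 42.2% of all genes tested. The cluster's summed level was 58.9 and 57.5 FPKM in shCON and 31.4 and 34.6 FPKM in shFAM49B, a ratio of 0.566. With 2 libraries against 2, an exact 2-sided permutation test of such a sum cannot go below p = 0.333.

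HOXD9, at chr2:176122720-176124937, was at 11.4 and 12.0 FPKM in shCON and at 4.12 and 3.82 FPKM in shFAM49B. That is 2.95-fold lower (log2 fold change -1.35, SE 0.0703, limma adjusted p = 0.0010), from 359 and 415 reads down to 118 and 107. HOXD10, a gene of lumbar motor neuron and hindlimb patterning, was at 17.9 FPKM in each shCON library and at 6.86 and 6.75 FPKM in shFAM49B. It was 2.63-fold lower (log2 fold change -1.28, SE 0.0575, limma adjusted p = 0.00076), and the gap between the groups was far wider than the spread within either. HOXD11, which acts with HOXA11 in the forelimb and the developing kidney, was at 7.98 and 8.51 FPKM in shCON and at 4.76 and 5.67 FPKM in shFAM49B (1.58-fold lower, limma adjusted p = 0.0078). HOXD10 and HOXD11 share 452 exon bases, 16.8% of the first and 21.4% of the second, so part of the reads of one may belong to the other. HOXD9 shares no exon base with another annotated gene.

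HOXD13, the gene of the digits and the most posterior of the cluster, was the least changed of the called HOXD genes. It was at 16.6 and 15.4 FPKM in shCON and at 12.7 and 13.8 FPKM in shFAM49B (1.21-fold lower, limma adjusted p = 0.039), and this call was lost when any of the 4 libraries was left out, when the mean-variance trend was dropped and without a filter on low values. HOXD8, a trunk gene, was at 4.44 and 3.25 FPKM in shCON and at 2.70 and 4.02 FPKM in shFAM49B, and the groups overlapped. Of the neighbours outside the cluster, MTX2, a mitochondrial import gene on the anterior side, was at 16.2 ± 2.60 and 16.7 ± 0.750 FPKM (limma adjusted p = 0.75), and EVX2, on the posterior side, was at or under 0.0901 FPKM.

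In the HOXA cluster, on the minus strand of chromosome 7, the genes that fell were HOXA5, HOXA6, HOXA9, HOXA10 and HOXA11. Its summed level was 107.8 and 110.1 FPKM in shCON and 71.8 and 71.3 FPKM in shFAM49B, a ratio of 0.657. Of its 10 tested members 5 fell and none rose, 50% called against 42.2% of all genes tested, with a median log2 fold change of -0.37. HOXA3, HOXA4, HOXA7 and HOXA13 did not pass. With lower values in shFAM49B, HOXA7 and HOXA13 passed as TPM and relative to recovered reads, and HOXA3 as TPM and with voom.

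HOXA5, a gene of lung and cervicothoracic patterning and the second highest HOX gene, was at 33.8 and 37.0 FPKM in shCON and at 23.3 and 21.4 FPKM in shFAM49B. It was 1.58-fold lower (log2 fold change -0.64, SE 0.0748, limma adjusted p = 0.0034). Its neighbour HOXA6 was at 13.1 and 14.3 FPKM in shCON and at 8.98 and 8.22 FPKM in shFAM49B (1.59-fold lower, limma adjusted p = 0.0040). Both genes kept their groups apart, although 39.3% of the exon bases of HOXA6 are shared with HOXA-AS3 on the opposite strand.

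HOXA9, the oviduct gene of the Müllerian series and an oncogene in acute leukaemia, had the largest fall of the cluster. It was at 17.1 and 17.7 FPKM in shCON and at 9.0 and 8.78 FPKM in shFAM49B (1.96-fold lower, log2 fold change -0.90, SE 0.0590, limma adjusted p = 0.0014). HOXA10, the uterine gene of that series, was at 13.5 and 14.5 FPKM in shCON and at 7.60 and 8.67 FPKM in shFAM49B (1.73-fold lower, limma adjusted p = 0.0034). HOXA11, which marks the lower uterus and cervix, was at 10.4 and 9.66 FPKM in shCON and at 8.14 and 7.99 FPKM in shFAM49B (1.25-fold lower, limma adjusted p = 0.023), a call lost when any of the 4 libraries was left out. HOXA13, the gene of the vaginal end and of the distal limb, was at 6.06 and 5.50 FPKM in shCON and at 5.26 and 4.41 FPKM in shFAM49B, did not overlap between groups and did not pass (limma adjusted p = 0.13). The folds of these 4 genes were thus 1.96, 1.73, 1.25 and 1.19 from HOXA9 to HOXA13, an order that was not tested.

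The other HOXA genes were lower in level. HOXA7, a trunk gene, was at 2.36 and 2.13 FPKM in shCON and at 1.81 and 1.77 FPKM in shFAM49B (limma adjusted p = 0.16), and 62.5% of its exon bases are also annotated to HOXA-AS3. HOXA3, needed for the thymus and parathyroid, was at 3.17 and 3.33 FPKM in shCON and at 1.83 and 2.90 FPKM in shFAM49B. HOXA4 was at 3.90 and 2.54 FPKM against 1.79 and 2.64 FPKM. Groups overlapped for HOXA4 and stood apart for HOXA3 and HOXA7. SKAP2, the neighbour on the anterior side, was at 8.18 ± 0.560 and 7.08 ± 1.21 FPKM (limma adjusted p = 0.24), and EVX1, beyond HOXA13, was at or under 0.290 FPKM.

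The HOXB cluster, at chr17:48528526-48729178 on the minus strand, changed less. Its summed level was 88.7 and 89.6 FPKM in shCON and 77.3 and 81.9 FPKM in shFAM49B, a ratio of 0.893. Of its 9 tested members 2 fell and none rose, 22.2% called against 42.2% of all genes tested, with a median log2 fold change of -0.12.

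HOXB9, a gene of the thoracic ribs and mammary gland, was at 39.8 and 39.2 FPKM in shCON and at 30.8 and 33.3 FPKM in shFAM49B. It was 1.23-fold lower (log2 fold change -0.30, SE 0.0622, limma adjusted p = 0.017). HOXB8, known from the trunk and from myeloid progenitors, was at 6.79 and 6.41 FPKM in shCON and at 4.52 and 5.34 FPKM in shFAM49B (1.34-fold lower, limma adjusted p = 0.029). Both calls were lost without shCON replicate 1, without shCON replicate 2, without shFAM49B replicate 1 and without a filter on low values. HOXB6 was at 11.5 and 12.4 FPKM in shCON and at 11.7 and 12.2 FPKM in shFAM49B, and its log2 fold change of 0.0013 turned to -0.24 and passed as TPM (limma adjusted p = 0.043). HOXB7, at 8.85 and 8.95 FPKM in shCON and 9.01 and 8.57 FPKM in shFAM49B, also overlapped between groups. As TPM and relative to recovered reads HOXB7 passed, with lower values in shFAM49B.

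HOXB13, a factor of the prostate and the hindgut, stands apart from the rest of its cluster on the chromosome. It was at 7.34 and 6.86 FPKM in shCON and at 8.75 and 7.63 FPKM in shFAM49B (limma adjusted p = 0.15). HOXB3 was at 3.55 and 3.65 FPKM in shCON and at 2.77 and 2.97 FPKM in shFAM49B (limma adjusted p = 0.061). HOXB5, which acts in the enteric nervous system, was at 3.98 and 4.08 FPKM against 3.10 and 3.41 FPKM (limma adjusted p = 0.063). HOXB3 and HOXB5 lay just short of the threshold with their groups apart, and passed as TPM, relative to recovered reads and with median ratios over the tested genes. HOXB4, known for expanding blood stem cells, was at 2.49 and 2.38 FPKM against 2.19 and 2.12 FPKM. HOXB2, the hindbrain gene, was at 4.44 and 5.65 FPKM against 4.52 and 6.29 FPKM, with overlapping groups. The neighbours SKAP1 and TTLL6 were at or under 0.498 FPKM.

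The HOXC cluster, at chr12:53938765-54056030 on the plus strand, held both genes that rose. Its summed level was 44.8 and 46.5 FPKM in shCON and 49.2 and 54.6 FPKM in shFAM49B, a ratio of 1.14 that turned to 0.958 as TPM and to 0.971 relative to recovered reads. Of its 7 tested members 2 rose and none fell, 28.6% called against 42.2% of all genes tested, and the median log2 fold change was 0.05.

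HOXC10, a gene of lumbar motor neurons and the hindlimb, was at 11.2 and 10.7 FPKM in shCON and at 15.3 and 15.6 FPKM in shFAM49B. It was 1.41-fold higher (log2 fold change 0.46, SE 0.0595, limma adjusted p = 0.0044), while its paralogs HOXA10 and HOXD10 fell. HOXC13, which drives keratin genes of the hair and nail, was at 6.92 and 7.03 FPKM in shCON and at 8.48 and 9.18 FPKM in shFAM49B (1.27-fold higher, limma adjusted p = 0.021). The call of HOXC13 was lost as TPM, relative to recovered reads, without a filter on low values, and without shCON replicate 1, shCON replicate 2 or shFAM49B replicate 2. HOXC11, a neighbour of HOXC10 and paralog of HOXA11 and HOXD11, did not pass: it was at 1.76 and 1.89 FPKM in shCON and at 0.739 and 1.25 FPKM in shFAM49B (log2 fold change -0.51, limma adjusted p = 0.060), and passed without shFAM49B replicate 2 and under each of the other between-library scalings except quantile normalization.

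HOXC9, a gene of thoracic motor columns, was at 7.27 and 8.99 FPKM in shCON and at 7.92 and 10.6 FPKM in shFAM49B. HOXC4 was at 9.35 and 9.76 FPKM against 9.41 and 10.5 FPKM. HOXC6, a gene of the brachial spinal cord and mammary gland, was at 4.30 and 4.92 FPKM against 4.64 and 4.17 FPKM. HOXC4 and HOXC6 share 484 exon bases, and HOXC4, HOXC6 and HOXC9 all overlapped between groups. HOXC8 was at 3.55 and 2.72 FPKM in shCON and at 2.42 and 2.90 FPKM in shFAM49B, also overlapping. Outside the cluster, SMUG1 was at 5.75 ± 0.214 and 5.50 ± 0.00954 FPKM (limma adjusted p = 0.56) and CALCOCO1 at 4.30 ± 0.247 and 3.51 ± 0.412 FPKM (limma adjusted p = 0.11), and both pass as TPM with lower values in shFAM49B.

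**Figure D4:**
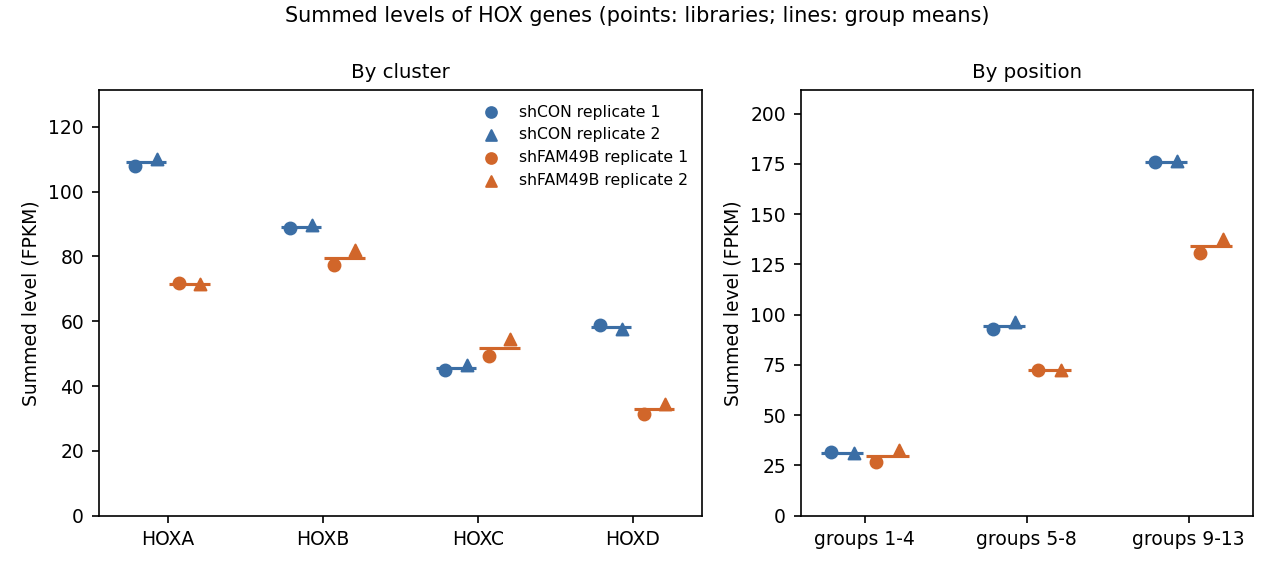
Summed HOX levels in FPKM on the vertical axis, by cluster (left) and by region of the cluster (right), with 1 point per library (blue: shCON; orange: shFAM49B; circles and triangles: replicates 1 and 2) and lines at the group means. The HOXD sum went from 58.2 to 33.0 FPKM and the HOXA sum from 109.0 to 71.5 FPKM, and the sum over groups 1 to 4 overlapped between the groups.

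Most of the called genes were posterior ones. With limma on log2(FPKM + 1), 0 of the 7 tested genes of groups 1 to 4 passed, although HOXB3 had an unadjusted p under 0.05 and 2 of them, HOXA3 and HOXB3, passed with voom on the recovered reads. Further back, 3 of 10 genes of groups 5 to 8 fell, and of 14 genes of groups 9 to 13, 8 fell and 2 rose. Over all genes tested, 42.2% passed. Position went in part with level: HOXA3, HOXA4, HOXB3 and HOXB4 averaged 2.29 to 3.23 FPKM, while all 13 called members averaged 5 FPKM or more. HOXB2 and HOXC4, also of groups 1 to 4, averaged 5.23 and 9.77 FPKM and did not pass either. Among genes averaging 5 FPKM or more, 13 of 20 HOX genes passed, 65%, against 58.1% of all genes. The part of level in this pattern was not tested. Groups 1 to 4 summed to 31.4 ± 0.521 FPKM in shCON against 29.6 ± 4.04 FPKM in shFAM49B, groups 5 to 8 to 94.5 ± 2.53 and 72.3 ± 0.0797 FPKM, and groups 9 to 13 to 176 ± 0.415 and 134 ± 5.06 FPKM. The sum over paralog group 13 was 35.8 ± 1.55 and 35.1 ± 0.137 FPKM, whereas group 9 went from 76.7 ± 1.69 to 54.2 ± 3.37 FPKM and group 10 from 42.9 ± 0.347 to 30.4 ± 0.869 FPKM. The balance of the clusters moved with this: HOXD gave 19.3% ± 0.492 of the HOX sum in shCON and 13.96% ± 0.430 in shFAM49B, and HOXC gave 15.1% ± 0.280 and 22.0% ± 0.777.

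Of the 13 called members, 8 passed under all 14 alternatives of the fit: HOXA5, HOXA6, HOXA9, HOXA10, HOXD9, HOXD10 and HOXD11 lower and HOXC10 higher. HOXA11, HOXB8, HOXB9, HOXC13 and HOXD13 did not pass under all of them, and each was lost in at least 3 of the 4 fits that left out a library. The libraries of a group agreed to a median coefficient of variation of 4.92% in shCON and 6.30% in shFAM49B over the 31 genes, with the widest at 29.9% for HOXA4 in shCON and 36.2% for HOXC11 in shFAM49B.

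Sequences upstream of the starts are shown for the called genes of HOXD and HOXA that the reference table holds and for the near-silent HOXD4, so that a gene that fell can be set beside one hardly read in the same cluster. Of the 39 members, 20 had an entry in RefSeq's promoter table (GRCh38.p14), with 27 start sites in 26 distinct windows (HOXC4 and HOXC5 share one), and HOXA5, HOXD9 and HOXC10 were not among them. Each run is the 250 bases before a start, 5′ to 3′ on the gene's strand. Capitals mark matches on either strand of TGATNNAT (the paired site of PBX and HOX proteins), TATAAA (the TATA box), CCAAT (the CCAAT box, read as ATTGG on the other strand) and CATGTG (an E box, added after the sequences were seen, read as CACATG on the other strand).
HOXD13 (chr2:176092471-176092720, plus strand): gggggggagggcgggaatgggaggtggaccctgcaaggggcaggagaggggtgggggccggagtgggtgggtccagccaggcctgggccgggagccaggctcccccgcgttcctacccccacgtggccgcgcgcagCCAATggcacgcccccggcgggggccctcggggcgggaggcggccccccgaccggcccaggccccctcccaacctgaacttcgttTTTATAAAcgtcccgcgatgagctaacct
HOXD11 (chr2:176107030-176107279, plus strand): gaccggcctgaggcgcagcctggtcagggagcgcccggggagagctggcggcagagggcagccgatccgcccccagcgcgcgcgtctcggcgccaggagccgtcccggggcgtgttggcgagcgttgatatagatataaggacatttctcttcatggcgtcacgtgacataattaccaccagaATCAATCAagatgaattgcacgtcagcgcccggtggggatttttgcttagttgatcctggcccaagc
HOXD10 (chr2:176116528-176116777, plus strand): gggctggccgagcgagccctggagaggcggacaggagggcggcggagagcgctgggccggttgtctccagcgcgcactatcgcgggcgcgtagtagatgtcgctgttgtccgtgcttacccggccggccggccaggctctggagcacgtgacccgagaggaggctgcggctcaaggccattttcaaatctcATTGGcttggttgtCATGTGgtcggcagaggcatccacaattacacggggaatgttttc
HOXD4 (chr2:176151300-176151549, plus strand): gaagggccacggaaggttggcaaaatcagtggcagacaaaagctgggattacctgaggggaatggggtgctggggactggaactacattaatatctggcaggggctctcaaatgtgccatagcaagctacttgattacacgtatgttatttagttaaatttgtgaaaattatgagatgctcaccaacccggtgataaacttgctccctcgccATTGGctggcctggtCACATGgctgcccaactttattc
HOXA6 (chr7:27147775-27148024, minus strand): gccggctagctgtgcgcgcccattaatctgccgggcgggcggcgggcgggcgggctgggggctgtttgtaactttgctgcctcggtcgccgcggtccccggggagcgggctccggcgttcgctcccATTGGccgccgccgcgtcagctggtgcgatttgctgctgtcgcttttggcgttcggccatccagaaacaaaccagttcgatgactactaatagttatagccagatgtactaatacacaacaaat
HOXA9 (chr7:27165538-27165787, minus strand): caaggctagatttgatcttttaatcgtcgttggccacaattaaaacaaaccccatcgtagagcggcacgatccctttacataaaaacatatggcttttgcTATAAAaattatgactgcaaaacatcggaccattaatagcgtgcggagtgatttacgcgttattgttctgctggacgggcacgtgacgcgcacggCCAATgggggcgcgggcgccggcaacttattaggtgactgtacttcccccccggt
HOXA10, downstream start (chr7:27174321-27174570, minus strand): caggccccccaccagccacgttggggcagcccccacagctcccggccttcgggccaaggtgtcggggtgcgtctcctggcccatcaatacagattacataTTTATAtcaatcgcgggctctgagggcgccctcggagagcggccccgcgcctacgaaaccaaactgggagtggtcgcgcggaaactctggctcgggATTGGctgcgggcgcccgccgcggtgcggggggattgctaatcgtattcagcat
HOXA10, upstream start (chr7:27179862-27180111, minus strand): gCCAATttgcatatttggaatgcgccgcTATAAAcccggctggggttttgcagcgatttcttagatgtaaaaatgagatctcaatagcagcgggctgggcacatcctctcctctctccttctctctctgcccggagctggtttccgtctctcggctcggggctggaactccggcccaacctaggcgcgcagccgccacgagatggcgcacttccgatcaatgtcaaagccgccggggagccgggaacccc
HOXA11 (chr7:27185233-27185482, minus strand): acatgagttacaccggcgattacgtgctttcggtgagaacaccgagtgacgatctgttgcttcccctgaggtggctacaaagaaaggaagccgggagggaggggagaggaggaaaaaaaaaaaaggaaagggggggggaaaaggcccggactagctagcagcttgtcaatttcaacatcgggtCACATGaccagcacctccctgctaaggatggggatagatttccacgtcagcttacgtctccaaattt

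HOXD10 and HOXD4 both hold an inverted CCAAT box followed by an E box near the start, although HOXD10 is among the highest members in shCON and HOXD4 is near 0. HOXD13, HOXA9 and both starts of HOXA10 hold a TATA box and a CCAAT box. Of the 4 motifs, HOXA6 holds only the CCAAT box, HOXA11 only the E box and HOXD11 only the paired PBX and HOX site. Over the 26 distinct HOX windows, CCAAT was found in 65.4% against 32.035% of the 34943 distinct promoter windows of the table, CATGTG in 30.8% against 9.45%, and both together in 26.9% against 3.13%. Because CATGTG was added after these windows were seen, its shares and those of the pair are no evidence of enrichment. Some windows also resemble each other, as those of HOXA3 and HOXC4 do around both motifs, and are not independent. TATAAA was found in 19.2% of HOX windows against 10.8% of all, and TGATNNAT in 11.5% against 6.49%. The exact string AGGTCA, 5 bases, AGGTCA, a direct repeat bound by retinoic acid receptors, was in none of the 26 and in 0.00286% of all windows. A string this rare would hardly be met in 26 windows, so its absence is no result about the HOX genes. These matches describe letters in these windows, not bound sites.

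Noncoding genes inside the clusters changed in both directions. There were 62 further genes between the outer members, of which 15 reached the level needed for a test, 2 rose, 7 fell and 6 did not pass. That is 60% called against 42.2% of all genes tested, of which 26.4% rose and 15.8% fell. Of 8 miRNA genes in the clusters, 6 had no read. The kit is not labelled as strand-specific and the counting strand is not given in the sources used here, so reads of a HOX gene and of its antisense partner cannot be told apart where their exons overlap, as they do for 17 of the 31 tested members.

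HOXD-AS2, antisense within the HOXD cluster, was at 6.76 and 7.11 FPKM in shCON and at 2.97 and 2.57 FPKM in shFAM49B (2.51-fold lower, limma adjusted p = 0.0018), and shares exon bases with HOXD3 among the members. HOTAIR, a transcript of the HOXC cluster known for binding Polycomb complexes, was at 3.87 and 3.72 FPKM in shCON and at 1.75 and 1.62 FPKM in shFAM49B (2.25-fold lower, limma adjusted p = 0.0031). Both fell with the posterior HOXD genes. Also lower were AC004080.2 in HOXA (2.24 ± 0.146 to 0.771 ± 0.0707 FPKM), HOXB-AS3 (4.69 ± 0.0324 to 2.82 ± 0.366 FPKM), HOXC13-AS (2.24 ± 0.344 to 0.659 ± 0.277 FPKM), HOXA11-AS (3.44 ± 0.633 to 1.74 ± 0.224 FPKM) and HOXA10-AS (1.90 ± 0.360 to 0.776 ± 0.241 FPKM). The last 4 calls were each lost when 1 or more single libraries were left out: HOXB-AS3 and HOXC13-AS without shCON replicate 1, HOXA11-AS without shCON replicate 2 or shFAM49B replicate 2, and HOXA10-AS without these or without shCON replicate 1.

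HOTAIRM1, a noncoding gene of the HOXA cluster known from myeloid differentiation, was at 5.47 and 5.60 FPKM in shCON and at 8.81 and 8.76 FPKM in shFAM49B. It was 1.59 times the shCON level (log2 fold change 0.58, SE 0.0622, limma adjusted p = 0.0029) and passed under every alternative. HOXC-AS1, the other riser, was at 2.40 and 1.92 FPKM in shCON and at 4.96 and 3.84 FPKM in shFAM49B (limma adjusted p = 0.011), a call lost without shCON replicate 2. HOXC13 rose and HOXC13-AS fell, with 7.10% of the exon bases of HOXC13 shared between them. HOXA11 and HOXA11-AS both fell, with 31.1% shared. HAGLR, HOXA-AS2, HOXA-AS3, HOXB-AS2, HOXC-AS2 and AC012531.1 did not pass, and HOTTIP, beside HOXA13, was at or under 0.308 FPKM.

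**Figure D5:**
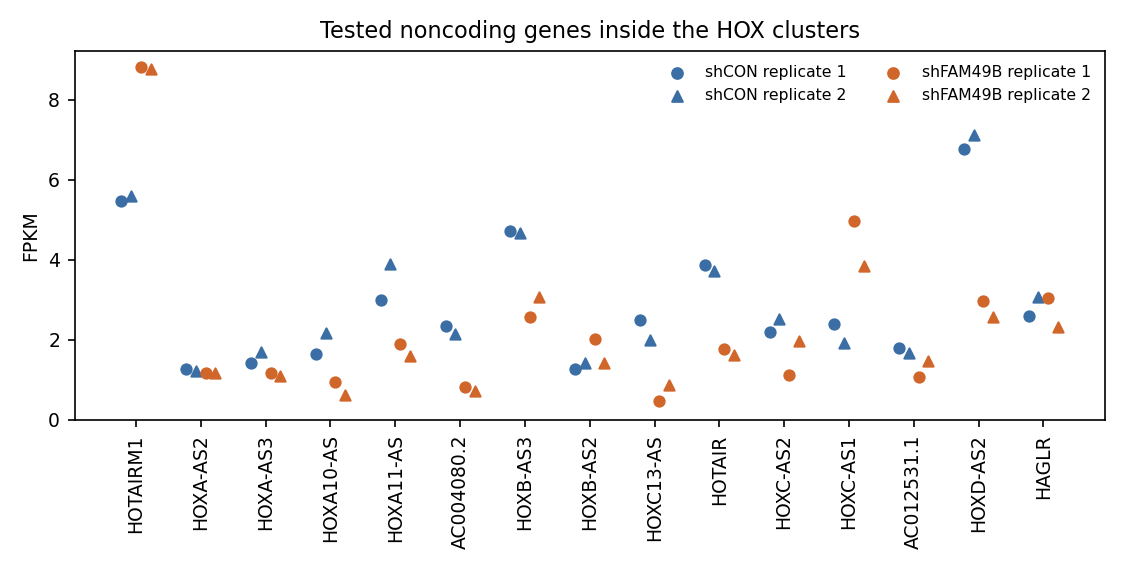
Levels in FPKM (vertical axis) of the 15 tested noncoding genes inside the HOX clusters (horizontal axis), with 1 point per library (blue: shCON; orange: shFAM49B; circles and triangles: replicates 1 and 2). HOTAIRM1 and HOXC-AS1 were higher in shFAM49B, and HOXD-AS2 and HOTAIR were at less than 3 FPKM there.

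Partners and regulators of HOX genes were read from fixed lists. HOX proteins bind DNA with TALE homeodomain partners, Polycomb complexes keep HOX genes silent, Trithorax and MLL complexes keep them active, retinoic acid switches on anterior genes, and CTCF with cohesin sets boundaries inside the clusters. Called were 33.3% of the tested TALE genes, 59.1% of the Polycomb genes and 33.3% of the Trithorax and MLL genes. For the retinoic acid genes it was 54.5% and for CTCF and cohesin 25%, against 42.2% of all genes tested. Of the 9 TALE genes 3 rose and none fell, with a median log2 fold change of 0.14 against 0.05 over all genes. PBX3 was at 5.52 ± 0.888 and 8.79 ± 1.16 FPKM, PBX4 at 1.64 ± 0.113 and 2.72 ± 0.300 FPKM, and PKNOX2 at 2.34 ± 0.268 and 3.77 ± 0.222 FPKM. Each of these calls was lost without shCON replicate 2, PBX3 and PBX4 also without shFAM49B replicate 1 and as TPM, PBX4 also without shCON replicate 1, and PKNOX2 also without shFAM49B replicate 2. MEIS3 (5.41 ± 0.367 and 6.77 ± 0.727 FPKM) did not pass (limma adjusted p = 0.065), and passed with the filter at 5 FPKM and with voom on the recovered reads.

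Of the 22 Polycomb genes 8 rose and 5 fell, with a median log2 fold change of 0.17. EZH2, the methyltransferase that writes the repressive histone mark, went from 14.2 and 14.4 FPKM to 23.0 and 20.2 FPKM (log2 fold change 0.56, limma adjusted p = 0.0052). PHC1 rose from 4.81 ± 0.410 to 8.59 ± 0.156 FPKM and PHC2 from 17.2 ± 0.425 to 23.8 ± 0.257 FPKM, while CBX6, a chromobox reader, fell from 29.9 ± 1.47 to 20.8 ± 1.01 FPKM. The others that fell were SUZ12 (20.7 ± 0.405 to 14.6 ± 1.33 FPKM, limma adjusted p = 0.0077), BMI1, JARID2 and MTF2. Of the 15 Trithorax and MLL genes 4 rose and 1 fell, with a median of 0.16. SETD1B, a writer of the active mark, fell from 6.87 ± 0.0591 to 4.4 ± 0.160 FPKM, and ASH2L (11.1 ± 0.459 to 14.7 ± 0.0309 FPKM), KMT2B (7.52 ± 0.259 to 10.4 ± 0.782 FPKM) and KDM6B (7.32 ± 0.508 to 9.32 ± 0.939 FPKM) rose. ASH2L, KMT2B and KDM6B did not pass as TPM, KMT2B was lost without shCON replicate 1 or shFAM49B replicate 2, and KDM6B, whose call was lost under 10 of the 14 alternatives, without either of these or shCON replicate 2.

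Of 17 retinoic acid genes 11 were tested, 4 rose and 2 fell, with a median of 0.07. RDH10, which makes retinaldehyde, was at 21.6 and 21.3 FPKM in shCON and at 7.67 and 7.17 FPKM in shFAM49B (2.89-fold lower, limma adjusted p = 0.00076). The enzymes of the next step moved apart: ALDH1A3 fell from 3.77 ± 0.300 to 0.527 ± 0.0576 FPKM and ALDH1A2 rose from 3.73 ± 0.0475 to 9.12 ± 0.0108 FPKM. CRABP2, the carrier of retinoic acid to its receptors, was at 156 ± 6.08 and 202 ± 9.12 FPKM, a rise (log2 fold change 0.37) lost as TPM and without shFAM49B replicate 2, and turned to -0.07 by quantile normalization. Of the 8 CTCF and cohesin genes SMC1A rose (49.9 ± 1.21 to 63.0 ± 0.671 FPKM, lost as TPM) and WAPL fell (17.9 ± 0.445 to 14.7 ± 0.394 FPKM, lost when any library was left out), with a median of -0.15, and STAG1 (5.20 ± 0.878 and 3.69 ± 0.466 FPKM) and NIPBL (8.73 ± 0.0399 and 7.11 ± 1.03 FPKM) did not pass. Both passed, with lower values in shFAM49B, as TPM, relative to recovered reads and with voom, STAG1 also with median ratios, and NIPBL also with the filter at 5 FPKM and without shFAM49B replicate 1. CDX2, an activator of trunk and posterior HOX genes, was at 9.18 ± 0.460 and 8.91 ± 0.584 FPKM and did not pass. As TPM and relative to recovered reads CDX2 passed, with lower values in shFAM49B. Geminin (GMNN), which counters HOX proteins, was at 26.8 ± 1.83 and 31.6 ± 0.418 FPKM (limma adjusted p = 0.043). The call of GMNN was lost under 10 of the 14 alternatives, among them those without shCON replicate 1 or either shFAM49B library. Its log2 fold change turned to -0.01 as TPM.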

How the data were processed

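RNA-seq of 4 libraries, 2 labelled shCON and 2 labelled shFAM49B by their titles, was used as the gene FPKM table the authors deposited. Reads behind each FPKM value were recovered as whole numbers for 100% of values (tolerance 0.001 of a step), and the deposited scale equals median ratios between libraries. The submitters' processing notes name GRCm38 and mm10, but gene coordinates and exon lengths of all 39 HOX genes equal human GENCODE 29 (GRCh38). Neither aligner nor counter is given in the sources used here. Values were tested as log2(FPKM + 1) with limma 3.58.1 in R 4.3.3 (mean-variance trend, 2-sided, Benjamini-Hochberg, threshold 0.05) over 13775 genes averaging 1 FPKM or more, with 2 residual and 3.32 prior degrees of freedom, after the script was tested on simulated data. Alternatives were another pseudocount (0.1), no filter or a filter at 5 FPKM, TPM, recovered reads as scale, median ratios over tested genes, quantile normalization, voom on recovered reads, no trend, a replicate block and leaving out each library. Members and lists were chosen with earlier results of these data known. Named are the HOX genes, noncoding genes in the clusters that passed, the nearest protein-coding neighbours, up to 4 genes of smallest p per list, and the Polycomb genes that fell. A HOX gene and some markers that this rule would name are not reported here, though counts and sums include them. Promoter sequences are RefSeq's. Depth limits precision by counting error only as far as PCR duplicates allow.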

Additional observations from a re-analysis of the deposited data

How the results depend on the processing

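The HOX calls gave 1 higher and 8 lower without a filter on low values, 1 and 19 as TPM, and 1 and 17 relative to recovered reads, against 2 and 11. Leaving out a library gave 1 to 2 higher and 7 to 11 lower, with 7 lower without shCON replicate 1, shCON replicate 2 or shFAM49B replicate 1. With a replicate block the HOX counts were 2 and 10 (HOXD13 lost) and the counts over all genes 3429 and 2036. Of the other named genes, GMNN and KDM6B lost and MEIS3 and STAG1 gained a call with it. Same-numbered libraries deviated with a correlation of -0.013, so the numbers were not taken as pairs. Over all genes 3642 rose and 2170 fell. Without a filter the counts were 2185 and 1378, as TPM 1597 and 4362, and relative to recovered reads 1722 and 4173. At 5 FPKM 1322 fell, with fewer genes tested, and leaving out a library gave 1897 to 2495 higher and 1027 to 1529 lower. Ratios of summed levels were 0.554 (HOXA), 0.753 (HOXB), 0.958 (HOXC) and 0.478 (HOXD) as TPM and 0.562, 0.763, 0.971 and 0.484 relative to recovered reads, against 0.657, 0.893, 1.14 and 0.566. With median ratios over the tested genes they were 0.626 for HOXA and 0.851 for HOXB. Among named genes, those that turned in sign and passed either as deposited or under that setting were HOXB6 (log2 fold change -0.24 as TPM), GMNN (-0.0086 as TPM) and CRABP2 (-0.074 after quantile normalization). HOXB2, HOXB7, HOXB13, HOXC4, HOXC6, HOXC9 and HOXD8 also turned under some settings, passing in neither fit. The cause was not tested, beyond the shift of all genes that each scaling brings by its construction. The fewest reads behind a tested member in a library were 37, for HOXC11.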
